A study of Mus musculus with 4 samples.

Results

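The miRNAs of the families miR-297, miR-466, miR-467 and miR-669, most of which are encoded in an intron of Sfmbt2, were examined in exosomes of 2 mouse colon carcinoma cell lines, C26 and MC38. Members were the rows of the deposited table whose name begins with one of these 4 family names followed by at most 1 letter and then a hyphen or the end of the name, and 49 of 795 listed mature miRNAs met this rule. Rows with identical values in all 4 libraries were counted once, which left 23 distinct profiles. Exosomes came from medium conditioned by cells grown in exosome-free medium, with no other treatment or genotype given. For each line, 1 library was made from exosomes precipitated with the ExoQuick-TC reagent and 1 from exosomes bound by a Wako capture ELISA kit, so that each of the 4 combinations of line and kit had no replicate. C26, whose tumours cause wasting in mice, and MC38 are established lines. Nothing in the labels tells whether separate cultures were used. Without replicates, the fits' p-values rest on how far the 4 libraries depart from additive effects of line and kit, which may be technical. For the members, limma took that spread almost wholly from other miRNAs of like level. Their SEs and p-values in limma therefore do not measure their own departure from additive effects.

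Sfmbt2 encodes a polycomb-like protein that is imprinted in the mouse, expressed from the paternal allele in extraembryonic tissues and needed for the placenta. A very large miRNA cluster lies in one of its introns, built from tandem copies of a few hairpins and rich in UG and CA repeats, and is known from mouse placenta and embryonic stem cells. Each hairpin can give a mature miRNA from either arm (5p or 3p), which pairs through its seed, bases 2 to 8, with target mRNAs. Copies that give the same mature miRNA cannot be told apart by sequencing.

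By gene name, RefSeq lists 81 hairpins of these families on GRCm38, of which 71 lie in a single 62.5 kb intron of Sfmbt2 (chr2:10461473-10523944, plus strand), all 71 on the plus strand. They span 51.6 kb, from chr2:10466663 to chr2:10518279, and the other 10 lie on 7 other chromosomes. Of the 49 members, 41 had hairpins in the intron only, 5 (miR-297a and miR-466f entries) had a further hairpin elsewhere, and miR-466i-5p and miR-466j had a hairpin on another chromosome only. No hairpin carried the name of miR-466a-3p. Of 7 annotated Sfmbt2 transcripts, 2 run through the intron, and the first of these starts at chr2:10372436. The 250 bases before that start (GRCm38.p6, RefSeq, chr2:10372186-10372435, plus strand) are shown because these transcripts contain all 71 hairpins, with matches to GGGCGG or its reverse complement in capitals.
Sfmbt2 promoter: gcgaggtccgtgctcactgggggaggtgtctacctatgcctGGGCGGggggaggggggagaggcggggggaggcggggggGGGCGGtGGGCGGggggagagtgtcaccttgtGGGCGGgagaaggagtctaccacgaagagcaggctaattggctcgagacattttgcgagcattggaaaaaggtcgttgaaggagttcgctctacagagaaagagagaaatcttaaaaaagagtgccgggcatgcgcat
The motif occurred 4 times there, and 32.7% of 32851 RefSeq promoter windows of this length held it on either strand. The window held 15 CpG, a count reached by 27.3% of those windows.

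The RefSeq table of mature sequences matched 1 member, miR-466j (chr10:60960802-60960824, plus strand), shown with its seed in capitals. It is set beside miR-574-5p (chr5:64970328-64970350, plus strand), no member but a miRNA with the same kind of repeat, whose run of UG is in capitals.
miR-466j: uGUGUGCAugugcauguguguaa
miR-574-5p: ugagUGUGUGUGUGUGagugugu

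Levels are given in RPM, the reads of a miRNA scaled by the total of its library. For C26 the totals recovered from the values were 1356801 reads with ExoQuick and 33692 with Wako, where a read was worth 0.737 and 29.7 RPM. For MC38 they were 340643 and 3867 reads, where it was worth 2.94 and 259 RPM. A count of 0 allows up to 3 reads, here called the floor, which is 8.81 RPM in MC38 ExoQuick and 776 RPM in MC38 Wako. Intervals and floors reflect counting error alone, because reads carry no molecular identifiers and may be copies of one molecule. In RNA pooled over exosomes, fewer exosomes that carry a miRNA and fewer copies per exosome cannot be told apart. Of the markers fixed for cell types, 5 epithelial ones were not analysed here, and 2 of 3 gut epithelial ones were listed, at a summed 75.9 (ExoQuick) and 148 RPM (Wako) in C26 and 64.6 and 1034 RPM in MC38. Only 1 of these 2 had reads in MC38 Wako.

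Exosomes of C26 carried miRNAs of the cluster, and no read of any member was found in either MC38 library. In C26 ExoQuick 47 of the 49 rows had reads, in C26 Wako 28, and in MC38 ExoQuick and MC38 Wako 0 and 0. Counting distinct profiles once, 21 of 23 had 675 reads in C26 ExoQuick and 15 had 50 reads in C26 Wako. The summed level was 497 RPM in C26 ExoQuick (exact 95% interval 461 to 537) and 1484 RPM in C26 Wako (1101 to 1957), 0.0497% and 0.148% of these libraries. Under ExoQuick the sum was at least 56.5-fold higher in C26 against the floor of MC38 ExoQuick, and under Wako at least 1.91-fold higher against the floor of MC38 Wako. The sum in C26 ExoQuick lies below the floor of MC38 Wako, so these bounds hold within each kit and not across kits.

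**Figure D1:**
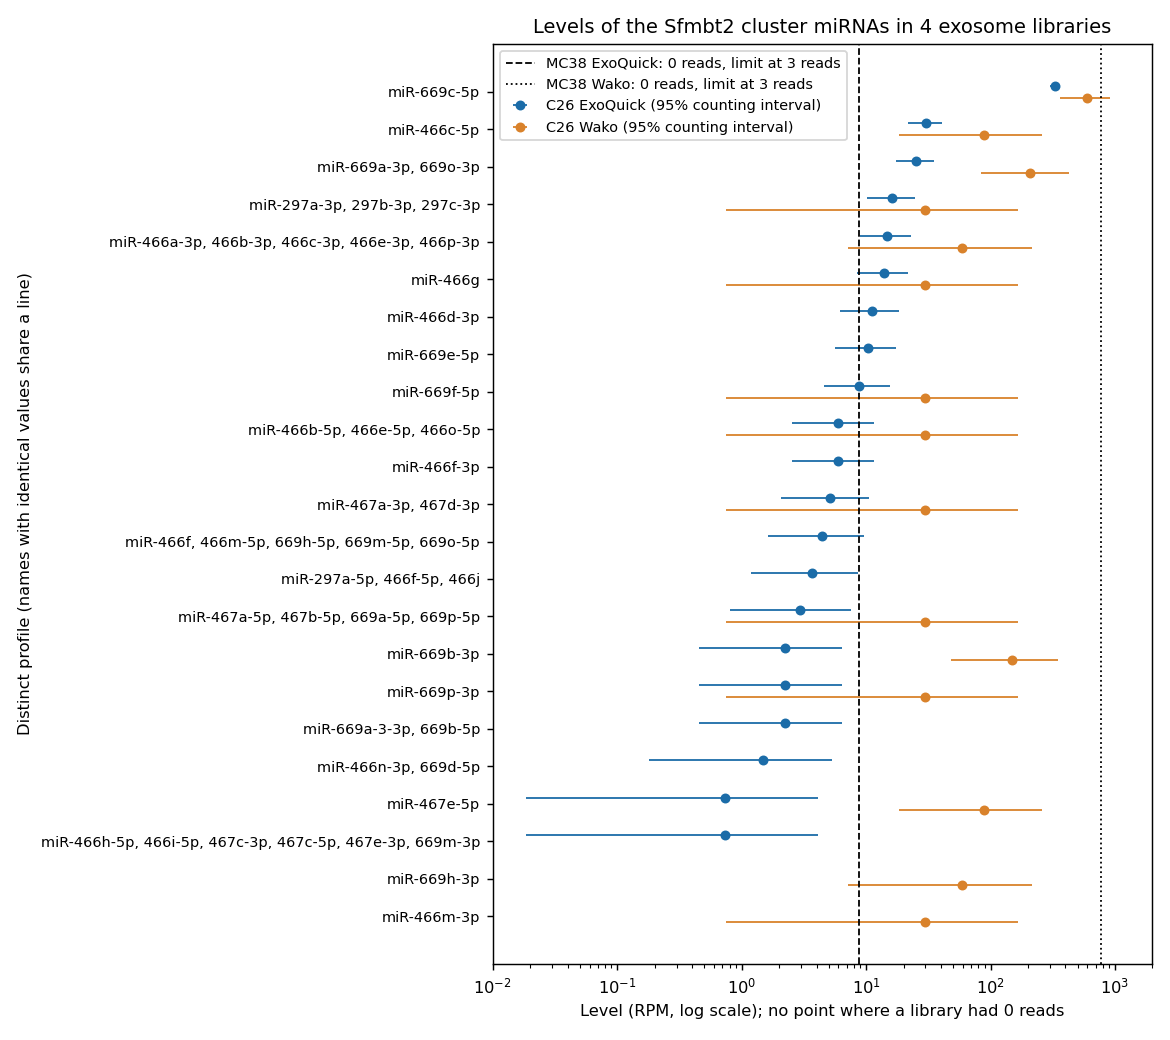
Level in RPM (log axis) of each of the 23 distinct profiles in C26 ExoQuick and C26 Wako, with exact 95% counting intervals; dashed and dotted lines mark the 3-read floors of MC38 ExoQuick (8.81 RPM) and MC38 Wako (776 RPM), where all members had 0 reads. 9 profiles lie above the MC38 ExoQuick floor in C26 ExoQuick, and all points of C26 Wako lie below the MC38 Wako floor.

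The depth of the MC38 libraries sets what these zeros can show. At the C26 ExoQuick level, the total of MC38 ExoQuick would have held 169 cluster reads, and 16.6 profiles would be expected with a read when C26 ExoQuick is thinned to that total. At the C26 Wako level, the total of MC38 Wako would have held 5.74 reads. For single members the Wako pair was uninformative: miR-669c-5p, the most abundant, stood at 594 RPM in C26 Wako, below the 776 RPM floor of MC38 Wako, so no difference of any one member was detectable there.

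Absence of reads from MC38 was common in the table, and the members are read against it. Of all 795 rows, 34.6% had reads in C26 ExoQuick and 0 in both MC38 libraries, against 47 of 49 members. Reads in both C26 libraries with 0 in both MC38 libraries were found in 9.43% of all rows and in 26 of 49 members. A level in C26 ExoQuick above the MC38 ExoQuick floor with 0 reads in MC38 ExoQuick was found in 5.41% of rows and in 16 of 49 members. The reverse form, reads in both MC38 libraries and 0 in both C26 libraries, was found in 0.377% of rows and in 0 members. Members that share reads are not separate observations in these counts.

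The level in C26 ExoQuick bears on this share, so rows were also counted within classes of level. Below 10 RPM, 32 of 32 cluster rows with reads had 0 in both MC38 libraries, against 206 of 344 other rows (59.9%). Between 10 and 100 RPM, it was 14 of 14 against 18 of 144 (12.5%). At 100 RPM or more, miR-669c-5p was the single cluster row, and 4 of 152 other rows (2.63%) had 0 in both MC38 libraries. Those 4, named here after their values were seen, were miR-125b-1-3p, miR-214-5p, miR-183-5p and miR-195a-5p, whose levels in C26 ExoQuick were 521, 257, 134 and 105 RPM.

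**Figure D2:**
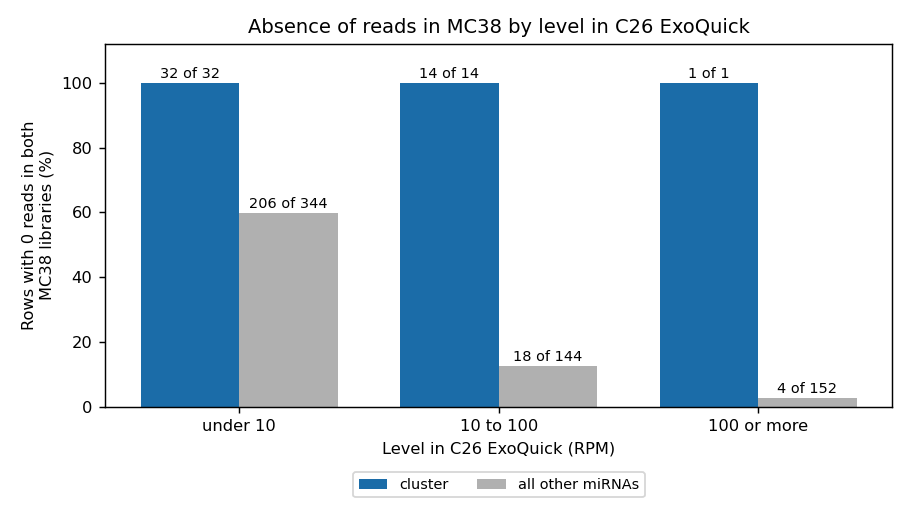
Percentage of miRNA rows with 0 reads in both MC38 libraries (vertical axis, from 0) by level in C26 ExoQuick (horizontal axis, RPM), for the cluster and for all other miRNAs with reads in C26 ExoQuick. The bar of the cluster is at 100% in each class, and that of the other miRNAs falls from 59.9% over 12.5% to 2.63%.

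A miRNA outside the cluster with a long run of UG was read in both lines. miR-574-5p stood at 1704 (ExoQuick) and 683 RPM (Wako) in C26 and at 1885 and 1552 RPM in MC38. It was present in all 4 libraries, and its C26 to MC38 ratio under ExoQuick was 0.904 (exact 95% interval 0.828 to 0.988). The other non-members holding 4 UG or 4 CA units in a row, miR-32-3p and miR-672-5p, had 13 and 3 reads in C26 ExoQuick and 0 in the other libraries. Of the miR-290 to miR-295, miR-302 and miR-367 miRNAs, typical of mouse embryonic stem cells like the cluster itself, 1 row was listed: miR-292a-5p, with 2 reads in MC38 ExoQuick and 0 in the other libraries.

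miR-669c-5p, reported to rise in the ageing mouse liver, dominated the cluster. Its level was 329 RPM in C26 ExoQuick (447 reads, exact 95% interval 299.6 to 361), 594 RPM in C26 Wako (20 reads, 363 to 917) and 0 in both MC38 libraries. Under ExoQuick it was at least 37.4-fold higher in C26. The floor of MC38 Wako, 776 RPM, lies above both C26 values, so a difference was not detectable against MC38 Wako. It ranked 106th of 795 rows in C26 ExoQuick and 107th in C26 Wako, so its place within the library was close under both kits. An exact permutation test over the 4 libraries gave p = 0.333 (two-sided), the smallest that 2 against 2 libraries can give. In the limma fit with terms for line and kit, its log2 difference was 8.79 (SE 4.07, adjusted p = 0.369), and its size depends on the pseudocount of 1, as both MC38 values are 0. In edgeR's quasi-likelihood test on the recovered reads its adjusted p was 0.0066, and in DESeq2 0.0605. Over all 14 alternatives its adjusted p ran from 0.0066 to 0.556.

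The other members were low. miR-466c-5p stood at 30.2 RPM in C26 ExoQuick (41 reads) and 89.04 in C26 Wako (3 reads). miR-669a-3p and miR-669o-3p, with identical values, stood at 25.1 RPM (34 reads) and 208 RPM (7 reads). miR-669a is reported to repress MyoD, the master regulator of muscle, in mouse cardiac progenitors. These profiles were the only ones besides miR-669c-5p with at least 10 reads in C26 ExoQuick and at least 3 in C26 Wako, and all had 0 reads in MC38. Against the MC38 ExoQuick floor they were at least 3.43-fold and at least 2.85-fold higher in C26 ExoQuick.

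The 3p entries of miR-297a, miR-297b and miR-297c shared 1 profile, at 16.2 RPM (22 reads) in C26 ExoQuick and 29.7 RPM (1 read) in C26 Wako. The 3p entries of miR-466a, miR-466b, miR-466c, miR-466e and miR-466p shared another, at 14.7 RPM (20 reads) and 59.4 RPM (2 reads). Within each group the values are identical under every name, so reads cannot be divided between the names. miR-466g followed at 14.0 RPM (19 reads) and 29.7 RPM (1 read). miR-466d-3p, miR-669e-5p and miR-669f-5p had 15, 14 and 12 reads in C26 ExoQuick and 0, 0 and 1 in C26 Wako. All of these 6 profiles had 0 reads in MC38 and exceeded its ExoQuick floor in C26 ExoQuick by at most 1.84-fold, the value of the miR-297 entries. That is little above what the depth of MC38 ExoQuick could detect.

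miR-669b-3p and miR-467e-5p were named for having at least 3 reads in C26 Wako with under 10 in C26 ExoQuick, a choice that fixes a high Wako to ExoQuick ratio, so their ratios are descriptions. miR-669b-3p had 3 reads in C26 ExoQuick (2.21 RPM) and 5 in C26 Wako (148 RPM), a Wako to ExoQuick ratio of 67.1 (exact 95% interval 13.1 to 432). miR-467e-5p had 1 read (0.737 RPM) and 3 reads (89.04 RPM), a ratio of 121 (9.7 to 6342). Both had 0 reads in MC38. The other 12 profiles, 31 names in all, had 0 to 8 reads in C26 ExoQuick, at most 5.9 RPM, and 0 to 2 reads in C26 Wako. Among them were miR-467b-5p, which is reported to repress lipoprotein lipase in mouse macrophages, and miR-466h-5p, reported to promote apoptosis in mouse cells, with 4 reads and 1 read in C26 ExoQuick. miR-466j, the member printed above, had 5 reads in C26 ExoQuick and 0 in the other libraries. miR-669h-3p and miR-466m-3p were the members with reads in C26 Wako (2 and 1) and 0 in C26 ExoQuick.

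Identical values do not always mean shared reads. Of the 23 profiles, 11 held several names, 37 in all, and some joined different families at low counts, such as 6 names of miR-466, miR-467 and miR-669 with 1 read each in C26 ExoQuick. Among rows outside the cluster with reads below 10 RPM in C26 ExoQuick, 344 rows held 125 distinct profiles, so equal low counts also arise between unrelated miRNAs. Counting identical rows once within a family and arm gave 33 entries with 709 and 51 reads in C26 ExoQuick and C26 Wako. Counting every row gave 912 and 73.

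Position in the cluster is shown by the map of hairpins. Mir669c (chr2:10509296-10509404), the one hairpin of miR-669c-5p, lies 42.6 kb from the first hairpin. The highest level did not belong to the name with the most copies. miR-669a has 12 hairpins, and its 3p and 5p entries had 34 and 4 reads in C26 ExoQuick. miR-467a has 10 hairpins, and its 3p and 5p entries had 7 and 4 reads. The 28 names with 1 hairpin, in the intron, had a median of 6 reads (0 to 447), and the 18 names with several hairpins a median of 6 (1 to 41). Some values stand in both groups, such as those of miR-669o-3p (1 hairpin) and miR-669a-3p (12 hairpins), and of 3p entries of miR-297 and miR-466. The medians therefore do not compare separate reads, and no conclusion on copy number is drawn from them.

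**Figure D3:**
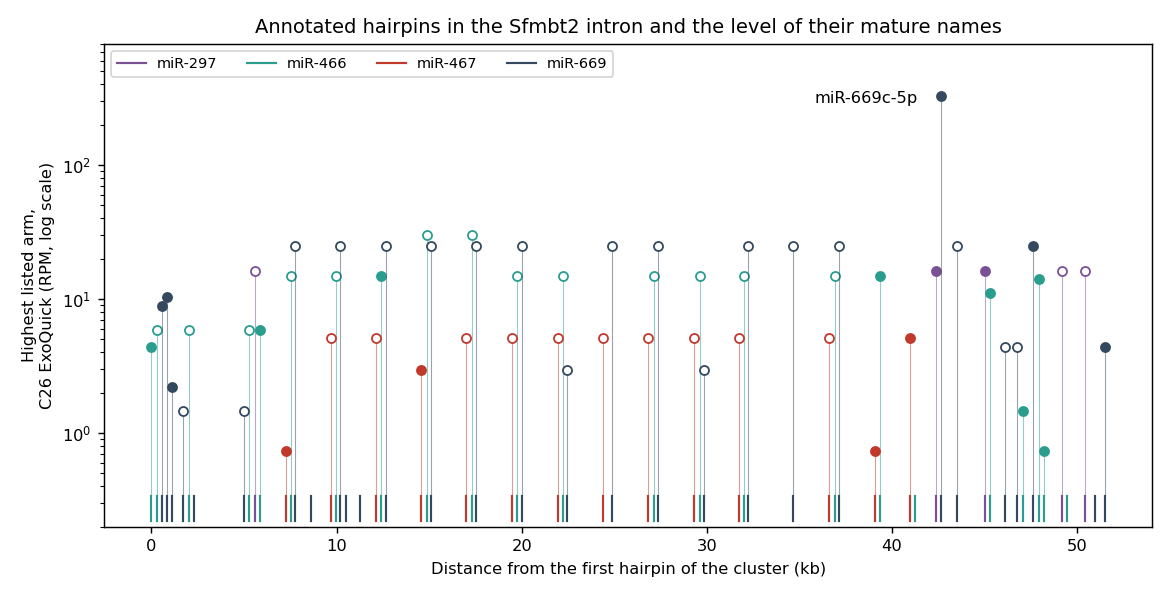
Each of the 71 annotated hairpins in the Sfmbt2 intron by distance from the first (kb), as a tick coloured by family, with the level in C26 ExoQuick (RPM, log axis) of its highest listed arm as a circle. Filled circles mark names with 1 annotated hairpin and open circles names with several, whose reads are plotted at each copy; miR-669c-5p, at 329 RPM, stands above all others, which are at or below 30.2 RPM.

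By family, with distinct profiles counted once within each, the 17 miR-669 names held 529 reads in C26 ExoQuick and 37 in C26 Wako, and 82 and 17 without miR-669c-5p. The 20 miR-466 names held 125 and 8, the 4 miR-297 names 27 and 1, and the 8 miR-467 names 13 and 5. In both libraries miR-669 was the highest family, also without miR-669c-5p in C26 Wako, while miR-466 was above the rest of miR-669 in C26 ExoQuick. By arm, 5p names held 544 and 29 reads and 3p names 118 and 20. Without miR-669c-5p, the 5p names held 97 and 9, fewer than the 3p names in each library. Of 15 miRNAs with both arms listed, the 5p arm had more reads in C26 ExoQuick in 5, the 3p arm in 7, and 3 were tied.

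The kits were compared within C26, the line with reads. The summed level was 2.98-fold higher in C26 Wako than in C26 ExoQuick (exact 95% interval 2.19 to 3.98), with 50 reads where 16.8 would have been expected at the ExoQuick level. The ratio was 1.8 for miR-669c-5p (1.09 to 2.82), 8.29 for miR-669a-3p and miR-669o-3p (3.1 to 19) and 2.95 for miR-466c-5p (0.584 to 9.24, which holds 1). Without miR-669c-5p the sum was 5.3-fold higher (3.49 to 7.78), and with median-ratio scaling in place of library totals the ratio for all profiles was 1.59. Among profiles with at least 10 reads in C26 ExoQuick it was 2.26 (1.56 to 3.18). Summed over rows, the rest of the table was also higher with Wako below 100 RPM in C26 ExoQuick, though not above. The classes were cut on the ExoQuick level, the denominator of the ratio, which can raise the ratio of low classes. For other rows below 10 RPM and from 10 to 100 RPM in C26 ExoQuick, the ratio of summed reads was 14.2 (12.7 to 15.8) and 11.3 (10.7 to 11.9). For the cluster rows it was 5.39 (3.15 to 8.73) and 3.87 (2.58 to 5.6). At 100 RPM or more, the class of miR-669c-5p, it was 0.911 (0.901 to 0.922) for the 152 other rows, lower with Wako. These sums count every row, and the 32 and 14 cluster rows of the lower classes held 13 and 7 distinct profiles. Reads listed under several names may thus enter repeatedly. The cluster's intervals in these classes are therefore too narrow, and the size of its gap to the other rows is uncertain.

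Resolution limits single members in this comparison. Of 26 member rows with reads in both C26 libraries, 22 were at least 2-fold higher with Wako, against 57.8% of 365 such rows, and 0 were at least 2-fold lower, against 10.1%. That 0 was nearly fixed in advance, because a single Wako read is worth 29.7 RPM. Among the members only miR-669c-5p, at 329 RPM in C26 ExoQuick, could have been 2-fold lower, and the next, miR-466c-5p, stood at 30.2 RPM. A single Wako read also puts any row below 14.8 RPM in C26 ExoQuick at least 2-fold higher, and 19 of the 26 rows were below it. Of the 7 others, 3 were at least 2-fold higher with Wako, against 37.9% of rows in that range, a share near the background. Names with identical values are counted separately here and are not separate observations. They are miR-669a-3p and miR-669o-3p among the 3, and the 3p entries of miR-297a, miR-297b and miR-297c among the rest.

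miR-669c-5p made up a larger part of the cluster with ExoQuick. It gave 66.2% of the cluster reads in C26 ExoQuick (exact 95% interval 62.5 to 69.8) and 40% in C26 Wako (26.4 to 54.8), and these intervals do not overlap. miR-669a-3p and miR-669o-3p gave 5.04% (3.51 to 6.97) and 14% (5.82 to 26.7), and miR-669b-3p 0.444% (0.0917 to 1.29) and 10% (3.33 to 21.8). miR-466c-5p gave 6.07% and 6%. With 1 library per kit these are differences between libraries, and no replicate bears on them. Outside the cluster, the summed reads of low rows were also higher with Wako relative to those of high rows. The ratio of summed reads was 14.2 below 10 RPM, 11.3 from 10 to 100 RPM and 0.911 at 100 RPM or more in C26 ExoQuick. Only 79 of 344 rows below 10 RPM had a Wako read, beside 109 of 144 rows from 10 to 100 RPM. Cutting the classes on the ExoQuick level can also raise the ratio of low classes.

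**Figure D4:**
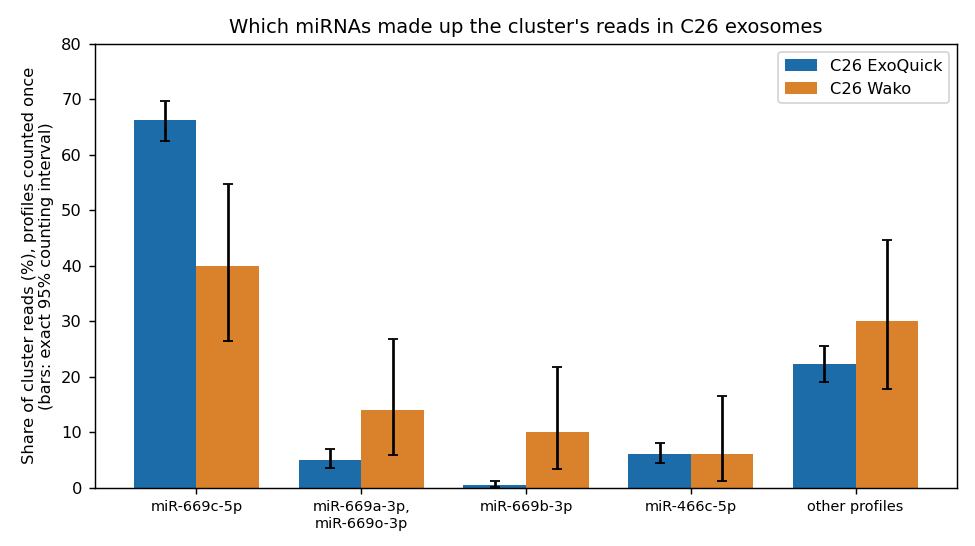
Share of the cluster's reads (%, profiles counted once) given by the leading profiles in C26 ExoQuick (675 reads) and C26 Wako (50 reads), with exact 95% counting intervals. miR-669c-5p is highest in both, at 66.2% and 40%, and miR-669b-3p is at 0.444% and 10%.

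Across the whole table, limma tested the 390 miRNAs whose mean reached 10 RPM. Of the members, 16 met this filter, through C26 alone, so their direction was set by the filter and their counts are no support. In the line comparison 0 of these 16 passed at an adjusted p under 0.05, against 2.82% of all tested called higher in C26 and 0.513% called higher in MC38. At an unadjusted p under 0.05 there was 1, miR-669c-5p, against 11.8% of all tested. edgeR called 1, against 3.08% of all tested called higher in C26 by edgeR. DESeq2 gave no adjusted p for 15 of the 16 members and did not call the remaining one, miR-669c-5p, against 3.85% of all tested. The log2 differences of the other 15 ran from 2.96 to 6.20, with SEs of 3.01 to 4.22 and adjusted p = 0.711. The median of the 16 was 4.95, beside 1.85 for all 390 miRNAs, but the filter and the pseudocount also shape this size, so it is no support. With a pseudocount of 10 the medians were 2.05 and 1.08. In the kit comparison 0 of 16 passed in limma (5.38% of all tested were called higher with Wako and 0% higher with ExoQuick), 0 had an unadjusted p under 0.05 (13.6% of all tested), and edgeR called 0 (1.79% of all tested). DESeq2 gave none of the 16 an adjusted p. The lowest adjusted p of the 16 was 0.745 in limma. As every member had 0 reads in MC38, limma's kit difference averages the C26 difference with 0, which makes it smaller than within C26.

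Levels of markers of other cell types also differed between libraries. The 5 mesenchymal markers miR-199a-5p, miR-199a-3p, miR-214-3p, miR-143-3p and miR-145a-5p summed to 132085 (ExoQuick) and 67167 RPM (Wako) in C26 and to 2448 and 43962 RPM in MC38, with reads for 5 of 5 in every library. The 4 white blood cell markers summed to 4656 and 6114 RPM in C26 and to 79.3 and 6465 RPM in MC38, in the same order of kits, with miR-150-5p at 0 in MC38 ExoQuick and miR-223-3p at 0 in MC38 Wako. The red cell pair miR-451a and miR-144-3p summed to 8.1 and 296.8 RPM in C26 and to 2.94 and 259 RPM in MC38, with miR-144-3p at 0 in both MC38 libraries. The liver marker miR-122-5p stood at 413 and 59.4 RPM in C26 and 746 and 259 RPM in MC38. In MC38 both red cell values, and the Wako value of miR-122-5p, are each the worth of 1 read. Within each kit the MC38 library was also the shallower. The part of these features in the cluster's difference was not tested.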

How the data were processed

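Small RNA of exosomes from C26 and MC38 cells was sequenced in 4 libraries, 1 per line and isolation kit. The deposited table holds 1 normalized signal value per mature miRNA and library. The submitters' processing notes name DESeq2. For the aligner, the counter, the build and the miRBase release, a name is not given in the sources used here. Per column, 100% of values were whole multiples of 1 read within a tolerance of 0.006, so whole reads and library totals were recovered. The columns sum to 1020209 to 1057545. Libraries differed pairwise beyond sampling noise (lowest chi-square per degree of freedom 9.06).

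Tests used limma 3.58.1 (R 4.3.3) with a trend, on log2(value + 1), with line and kit as terms and 1 residual degree of freedom, two-sided, adjusted by Benjamini-Hochberg over 390 miRNAs. Count tests were edgeR 4.0.16 and DESeq2 1.42.0. Exact 95% intervals are Clopper-Pearson for shares and levels, Poisson for sums and conditional binomial for ratios. The fits were run on simulated data, but scored only on miRNAs whose mean level was above that of every member. That run does not cover the members. Profiles with at least 10 reads in C26 ExoQuick or at least 3 in C26 Wako were named. Members, lists and rules were chosen with earlier results of these data known. Hairpins were matched by name to RefSeq and the intron taken from GENCODE, both GRCm38. RefSeq mature sequences matched 650 of 795 rows.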

Additional observations from a re-analysis of the deposited data

How the results depend on the processing

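No member was called in the line comparison in 11 of 14 alternatives. edgeR called 1, and leaving out 1 library gave 0 to 16, with 16 without C26 ExoQuick and 14 without C26 Wako. In those fits, which cannot keep the kit term, the remaining MC38 values are both 0 and leave no residual spread, so these calls do not show a difference. In the kit comparison, leaving out 1 library gave 0 to 1 calls (miR-669h-3p without MC38 Wako) and the other alternatives 0, which in DESeq2 says nothing, as it gave no member an adjusted p there. Its 0 calls between the lines rest on 1 member with an adjusted p. Of 116 values of the line difference over 9 profiles, 98 neither reversed nor crossed the threshold, 1 of them at 0.00 (miR-669h-3p without C26 Wako). DESeq2 reversed miR-669h-3p (log2 −1.07), and the cause was not tested. For miR-669c-5p the kit difference in limma was 0.42, the mean of the C26 difference and 0, as both MC38 values are 0. It turned to −0.03 with median-ratio scaling and −0.51 in edgeR, and ran from −4.18 to 5.03 when 1 library was left out. The kit fits without 1 library did not keep the line term, so the line difference enters that range. The bound on the ExoQuick sum, 56.5-fold, was 169.5 with a floor of 1 count, 76.3 over every listed row, 19.1 without miR-669c-5p and 30.5 with median-ratio scaling. The Wako to ExoQuick ratio was 5.3 without miR-669c-5p and 1.59 with median-ratio scaling. Over every listed row, miR-669c-5p gave 49.01% in C26 ExoQuick. Thinned to the total of C26 Wako, C26 ExoQuick would hold 5.49 profiles with a read, against 15 in C26 Wako. With at least 3 reads required, the 15 profiles of C26 Wako became 5. Counting within family and arm, and the restriction to profiles with at least 10 reads, were added after seeing the data. Sums cannot be had without either library they compare. The labels give no replicate numbers to pair by, and the fit with both terms already compares the lines within each kit. Depth limits every MC38 zero, above all in MC38 Wako.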
